A study of Mus musculus with 8 samples.

Results

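The 10 genes described here encode the machinery that places peptides on MHC class I molecules: the class I heavy chains H2-K1 and H2-D1, the shared light chain B2m, the peptide transporter subunits Tap1 and Tap2, the loading factor Tapbp, the inducible proteasome subunits Psmb8, Psmb9 and Psmb10, and the class I transactivator Nlrc5. They were taken by gene symbol from a list fixed by name, and all 10 were found, 1 row each, among 25572 genes. RNA was measured in sorted cells labelled neutrophils from PyMT-N tumours of mice given as C57/B6, in 4 libraries of ICAM1-high cells (CD54-positive in the titles) and 4 of ICAM1-low cells (CD54-negative), numbered 1, 2, 3 and 5 in both groups. ICAM1, or CD54, is an adhesion molecule of leukocytes and other cells, and PyMT-N is the tumour that the series design names without further detail. Both groups came from tumours, so no blood or normal tissue neutrophils were compared, and the labels used here give no age, sex or treatment, nor whether animals were pooled. The question was how the class I pathway differed between the CD54-positive and the CD54-negative fraction.

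Class I molecules show peptides from inside the cell to CD8 T cells. The proteasome cuts proteins into peptides, TAP carries them into the endoplasmic reticulum, tapasin (the product of Tapbp) holds the empty heavy and light chain beside TAP, and the loaded complex moves to the surface. Interferons raise most of these genes, in part through IRF1, and NLRC5 acts on class I promoters through an upstream module of X and Y boxes, as its relative CIITA does for class II. Neutrophils carry class I like nearly all nucleated cells, and they present antigen on class II less readily than macrophages and dendritic cells do.

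The upstream sequences of the chain genes are shown because they hold the letters through which these genes are known to be controlled together. That of Tap1 is shown beside them. It held TGACG and, on the other strand, ATTGG, but not 20 bases apart, and no interferon or kappa-B letters. All are from RefSeq in build GRCm38.p6. The set of upstream sequences used here held an entry for 8 of the 10 genes, and none for Tap2 and Nlrc5. The stretches end at the base before the annotated start of transcription and are chr17:34000348-34000527 on the minus strand for H2-K1, chr17:35262914-35263093 on the plus strand for H2-D1, chr2:122147507-122147686 on the plus strand for B2m and chr17:34187331-34187555 on the plus strand for Tap1. Capitals mark the kappa-B letters GGGNNTTCC, the interferon element of class I chains (GAANNGAAA on either strand), the interferon-stimulated response element (GAAA, any 2 bases, GAAA), and the X2 box TGACG with the Y box ATTGG; X2 and Y boxes are marked on the printed strand only.
H2-K1: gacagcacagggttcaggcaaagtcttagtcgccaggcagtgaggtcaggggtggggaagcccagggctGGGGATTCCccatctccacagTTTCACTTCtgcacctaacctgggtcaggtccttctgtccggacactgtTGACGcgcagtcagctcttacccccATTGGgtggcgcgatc
H2-D1: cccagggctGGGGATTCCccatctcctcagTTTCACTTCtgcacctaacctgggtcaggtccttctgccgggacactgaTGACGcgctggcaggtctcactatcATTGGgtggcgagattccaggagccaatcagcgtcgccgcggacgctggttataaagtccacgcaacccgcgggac
B2m: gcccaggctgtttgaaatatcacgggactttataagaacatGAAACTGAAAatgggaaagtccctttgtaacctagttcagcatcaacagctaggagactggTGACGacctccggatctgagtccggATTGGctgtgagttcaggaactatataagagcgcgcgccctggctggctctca
Tap1: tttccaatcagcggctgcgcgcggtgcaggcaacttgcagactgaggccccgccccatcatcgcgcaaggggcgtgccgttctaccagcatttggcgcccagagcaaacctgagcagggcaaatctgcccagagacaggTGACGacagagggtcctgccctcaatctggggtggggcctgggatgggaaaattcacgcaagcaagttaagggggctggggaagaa

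In all 3 chain promoters the letters TGACG and ATTGG stood exactly 20 bases apart. Within 250 bases before the start, that spacing occurred on either strand in 25 of 27025 promoters (0.0925%) and in 3 of the 8 class I pathway genes searched (H2-K1, H2-D1 and B2m). The motifs were chosen after these promoters had been read, so the counts describe and test nothing. TGACG alone was in 5 of the 8 genes and in 17.9% of promoters, and ATTGG alone was in 6 of the 8 and in 34.5%. H2-K1 and H2-D1 shared the kappa-B letters (4.88% of promoters) and the class I interferon element (6.34%), and B2m held the interferon-stimulated response element (3.04%). Their upstream sequences were 91% identical over 177 aligned columns. Tap1 and Psmb9 face away from each other with starts 226 bases apart, so the 225 bases printed for Tap1 are also the upstream sequence of Psmb9 read from the other strand.

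**Figure D1:**
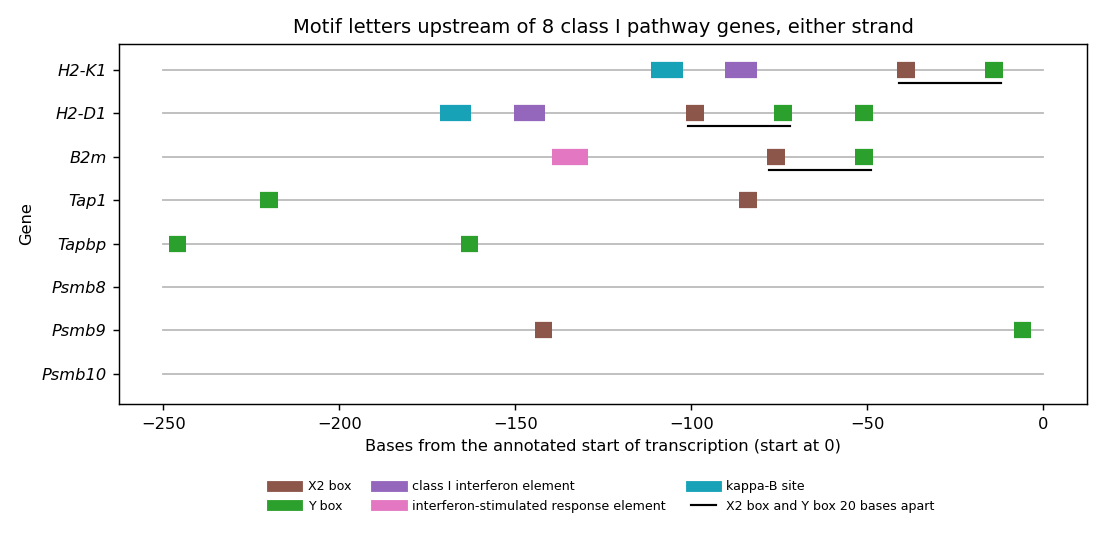
Positions of motif letters in the 250 bases before the annotated start of transcription of 8 genes; the x axis is the distance from the start in bases, coloured blocks are matches on either strand and black lines join the X2 and Y boxes that stand 20 bases apart. That spacing is in H2-K1, H2-D1 and B2m, and the Psmb8 and Psmb10 stretches hold none of the letters searched.

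Library totals ran from 15940328 to 21825096 estimated counts. Icam1 itself went against 1 label: it stood at 138 CPM (counts scaled to library totals adjusted by TMM factors) in the library labelled CD54-negative replicate 5, above the 42.4 to 122 CPM of the CD54-positive libraries, while CD54-negative replicates 1, 2 and 3 held 4.31 to 18.7 CPM. With library sizes only it was at 98.6 CPM there, below CD54-positive replicate 5 (128 CPM) and above the other CD54-positive libraries (47.2 to 66.4 CPM). Cells were sorted by antibody for the protein, and mRNA need not follow it. The neutrophil label held less well for the CD54-positive fraction: 15 neutrophil markers summed to 1523 to 4670 CPM in CD54-positive and 7786 to 31946 CPM in CD54-negative libraries, and 7 of 14 tested fell. Ly6g, the defining surface marker of mouse neutrophils, stood at 0.095 to 3.99 CPM in CD54-positive and 25.9 to 41.1 CPM in CD54-negative libraries, and the early granule gene Elane was at 0 in 5 libraries. Macrophage markers (17 genes) summed to 6339 to 17911 CPM in CD54-positive and 955 to 1438 CPM in CD54-negative libraries, and 11 of the 17 rose. In each of the 4 CD54-positive libraries the macrophage sum was above the neutrophil sum, and in each of the 4 CD54-negative libraries it was below. The 14 T and NK cell markers summed to 85.1 to 401 CPM in CD54-positive and 2.83 to 64.2 CPM in CD54-negative libraries. Cd3d, Cd3e, Trac and Cd8a stood at 0 both in CD54-negative replicate 3 and in the library labelled CD54-negative replicate 5. Cd8a was also at 0 in CD54-negative replicate 1. Other genes of this list went the other way in CD54-negative replicate 3, with Klrb1c at 31.5 CPM and Gzmb at 22.6 CPM. Its T and NK cell sum (64.2 CPM) was the highest of the CD54-negative libraries, and that of the library labelled CD54-negative replicate 5 (2.83 CPM) the lowest. B and plasma cell markers, 10 genes, summed to 307 to 2246 CPM in CD54-positive and 54.7 to 439 CPM in CD54-negative libraries. Dendritic cell markers, 10 genes, summed to 260 to 533 CPM in CD54-positive and 99.4 to 226 CPM in CD54-negative libraries. The B and plasma cell, monocyte, fibroblast, epithelial and endothelial marker sums overlapped between the groups. Of 6 monocyte markers 3 rose (Ccr2, Cx3cr1 and Ms4a4c, by 3.81, 3.06 and 4.29 in log2) and Ly6c2 fell (-2.60), while of the lists other than these, macrophages and neutrophils only the T cell gene Cd4 rose and only the fibroblast gene Col6a1 fell. For the neutrophil, macrophage, dendritic and T and NK cell sums the exact permutation p was 0.0286, the smallest that 4 against 4 allows (adjusted p = 0.0643 over 9 lists). The part of these cell markers in the values below was not tested, and in bulk RNA fewer cells of a type and less RNA per cell cannot be told apart.

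**Figure D2:**
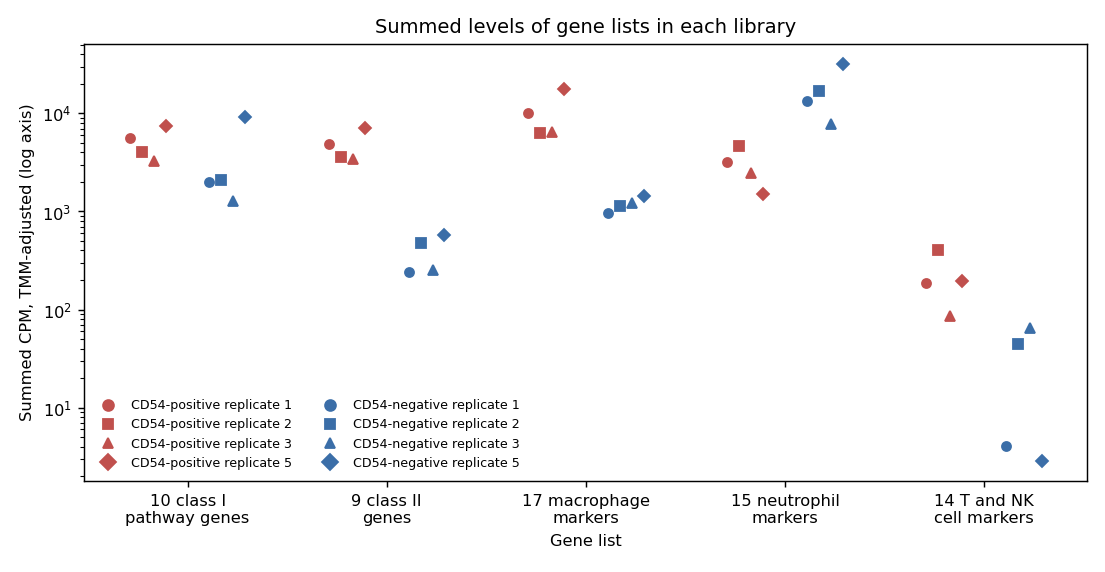
Summed CPM (log axis) of the class I pathway genes, class II genes and markers of macrophages, neutrophils and T and NK cells, 1 point per library, CD54-positive in red and CD54-negative in blue. The class I sum of the library labelled CD54-negative replicate 5 (9118 CPM) is the highest of the 8 with TMM scaling (with library sizes only it is 6521 CPM, below the 7836 CPM of CD54-positive replicate 5), while its class II sum (570 CPM) stays below the lowest CD54-positive value of 3413 CPM.

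None of the 10 class I pathway genes passed the test between CD54-positive and CD54-negative libraries, although 9 of the 10 had positive log2 fold changes. The quasi-likelihood test of edgeR with Benjamini-Hochberg adjustment over 13575 genes, at a threshold of 0.05, called 1.5% of all genes, 1.22% as higher and 0.273% as lower in CD54-positive libraries. At an unadjusted p under 0.05, 1 of the 10 (Psmb8) and 16.9% of all genes were past the line, and DESeq2 called 0 of the 10 and 9.56% of all genes. The count was also 0 with RLE scaling (1.16% of all genes called), upper-quartile scaling (1.83%), library sizes only (2.13%), no filter (1.43%) and a filter of at least 10 CPM in 4 libraries (2.82%). The median log2 fold change was 0.93 over the 10 genes and -0.07 over all genes. In none of the 10 did the groups stand apart, whereas every CD54-positive library was above every CD54-negative library in 7.51% of all genes and below in 3.89%. For 5 of the 10 (H2-K1, B2m, Tap1, Psmb8 and Nlrc5) every CD54-positive library was above CD54-negative replicates 1, 2 and 3, as for 11.5% of all genes. Each gene had between 34 and 57810 estimated counts in a library. On simulated counts with the spread of these libraries the test missed most changes of the sizes estimated here, so a gene that did not pass is not shown to be alike in the groups.

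The classical heavy chains were among the most abundant of these genes. H2-K1, which encodes the K heavy chain, stood at 2746, 1787, 1407 and 2430 CPM in CD54-positive replicates 1, 2, 3 and 5, and at 526, 698, 508 and 3147 CPM in CD54-negative replicates 1, 2, 3 and 5. Every CD54-positive library was thus above CD54-negative replicates 1, 2 and 3, and the library labelled CD54-negative replicate 5 was above all of them, though not with library sizes only. In log2 this was a difference of 0.78 ± 0.65 (SE, n = 4 against 4), with an adjusted p of 0.577 in edgeR. H2-D1, the D heavy chain gene, stood at 900, 849, 934 and 2519 CPM in CD54-positive libraries and at 890, 768, 213 and 3994 CPM in CD54-negative libraries, in the same order of replicates. The groups overlapped throughout, with both libraries numbered 5 far above the others, and the log2 fold change was -0.17 ± 0.78 (edgeR adjusted p = 0.934), a sign that turned positive with library sizes only (0.23). H2-K1 and H2-D1 are close relatives: of the 31-base words in the GENCODE M21 protein-coding transcripts of H2-K1, 14.3% also occur in those of H2-D1, and 19.7% in at least 1 of 10 other class I chain genes, so the split of reads between chains is uncertain in part.

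B2m encodes the light chain that every class I heavy chain needs to reach the surface. Its level was 1106, 821, 529 and 1449 CPM in CD54-positive replicates 1, 2, 3 and 5 and 294, 303, 224 and 959 CPM in CD54-negative replicates 1, 2, 3 and 5. As for H2-K1, all CD54-positive libraries were above CD54-negative replicates 1, 2 and 3, and the library labelled CD54-negative replicate 5 lay among the CD54-positive values. In log2 the groups were 1.13 ± 0.57 apart (SE, n = 4 against 4), with an adjusted p of 0.34 in edgeR.

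For the transporter and loading genes the groups overlapped, and the log2 fold changes lay between 0.00 and 0.46. Tap1, which with Tap2 forms the peptide transporter, stood at 99.0, 85.4, 73.7 and 239.7 CPM in CD54-positive replicates 1, 2, 3 and 5 and at 58.9, 52.7, 22.5 and 229 CPM in CD54-negative ones (log2 fold change 0.46 ± 0.69; edgeR adjusted p = 0.779). The highest values were again those of both libraries numbered 5. Tap2 ran from 41.9 to 62.0 CPM in CD54-positive and from 33.4 to 101 CPM in CD54-negative libraries, with group means of 53.8 ± 8.48 and 53.7 ± 31.8 CPM (SD, n = 4 each). Tapbp, whose product tapasin edits the peptide cargo, ran from 166 to 434 CPM in CD54-positive and from 127 to 473 CPM in CD54-negative libraries, or 0.16 ± 0.50 apart in log2 (edgeR adjusted p = 0.905). The log2 fold change of Tap2 was 0.00 ± 0.48 (edgeR adjusted p = 0.999), and its sign turned with RLE scaling (-0.09).

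Among the inducible proteasome subunits were the largest log2 fold changes of the 10 genes, those of Psmb8 and Psmb10. Neither passed the edgeR test with all 8 libraries and group as the only term. Psmb8, which replaces the chymotrypsin-like subunit Psmb5 in the immunoproteasome, stood at 93.2, 90.5, 57.9 and 200 CPM in CD54-positive replicates 1, 2, 3 and 5 and at 23.2, 18.7, 8.14 and 65.0 CPM in CD54-negative replicates 1, 2, 3 and 5. Only the CD54-positive replicate 3 value fell inside the range of the CD54-negative libraries, below the library labelled CD54-negative replicate 5. CD54-positive exceeded CD54-negative by 1.94 ± 0.66 in log2 (SE, n = 4 against 4). The edgeR adjusted p was 0.173 (0.0128 unadjusted), the smallest of the 10 genes. With the replicate number added as a block the edgeR adjusted p of Psmb8 was 0.0352, where 280 of 13575 genes were called higher. The titles do not say what that number marks. Psmb9, the partner of Tap1 across their common upstream stretch and the replacement for Psmb6, had 68.2, 46.0, 22.1 and 69.3 CPM in CD54-positive and 14.9, 11.8, 23.6 and 47.2 CPM in CD54-negative libraries (1.08 ± 0.59; edgeR adjusted p = 0.38). Psmb10, the replacement for Psmb7, had 22.2, 25.5, 11.3 and 104 CPM in CD54-positive libraries and 27.1, 14.5, 3.20 and 2.98 CPM in CD54-negative libraries (1.76 ± 0.90; edgeR adjusted p = 0.347). It was the 1 gene of the 10 that was not highest among CD54-negative libraries in the library labelled CD54-negative replicate 5, where it was lowest. Its fold change rests on CD54-positive replicate 5: without that library it was 0.72.

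Nlrc5 encodes the protein that drives transcription of class I genes. It stood at 76.7, 88.4, 37.0 and 54.1 CPM in CD54-positive replicates 1, 2, 3 and 5 and at 4.25, 8.09, 9.64 and 99.5 CPM in CD54-negative replicates 1, 2, 3 and 5. Every CD54-positive library was above CD54-negative replicates 1, 2 and 3, and the library labelled CD54-negative replicate 5 held the highest value of all 8, though not with library sizes only. With all libraries the log2 difference was 1.08 ± 0.89 (SE, n = 4 against 4), with an adjusted p of 0.573 in edgeR.

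**Figure D3:**
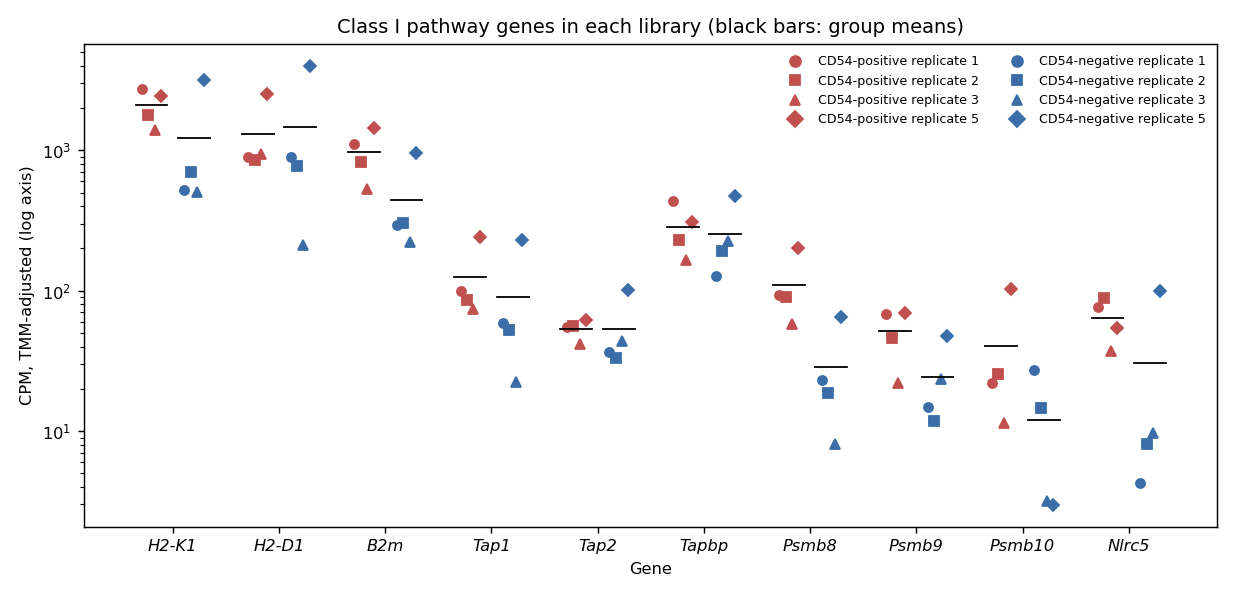
Level of each of the 10 genes in every library, in CPM on a log axis, CD54-positive in red at left and CD54-negative in blue at right of each gene; the marker shape gives the replicate number and black bars are means of 4. The blue diamonds (the library labelled CD54-negative replicate 5) lie above the other blue points for 9 genes and below them for Psmb10.

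The outcome for 4 of the 10 genes turned on the library labelled CD54-negative replicate 5. Without it, 4 against 3 libraries, H2-K1, B2m, Psmb8 and Nlrc5 rose in CD54-positive libraries, beside 2.36% of 14286 genes called higher. On the log2 scale Nlrc5 was 3.14 ± 0.56 higher (SE; edgeR adjusted p = 0.0198), Psmb8 of 2.72 ± 0.58 (edgeR adjusted p = 0.0338), H2-K1 of 1.86 ± 0.41 (edgeR adjusted p = 0.0355) and B2m of 1.83 ± 0.44 (edgeR adjusted p = 0.0436). Tap1 (1.47 ± 0.54), Psmb9 (1.61 ± 0.55), Psmb10 (1.42 ± 0.88), H2-D1 (1.05 ± 0.59), Tapbp (0.64 ± 0.42) and Tap2 (0.50 ± 0.40) did not pass (edgeR adjusted p from 0.122 to 0.517). The median over the 10 genes was then 1.54, against 0.07 over all genes. Leaving out both libraries numbered 5 kept H2-K1 and Nlrc5 past the threshold (edgeR adjusted p = 0.0421 and 0.0276; 1.59% of all genes called higher), while Psmb8 (0.0535) and B2m (0.0582) did not pass. With all 8 libraries, limma-voom with sample weights, which gives less weight to libraries that stand apart, called 3 of the 10 (H2-K1, Psmb8 and Nlrc5) and 3.54% of all genes as higher. No other single library, when left out, brought any of the 10 past the threshold, with 0.301%, 0.411%, 0.566% and 0.412% of all genes called without CD54-positive replicates 1, 2, 3 and 5 and 0.0284%, 0.533% and 1.18% without CD54-negative replicates 1, 2 and 3.

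**Figure D4:**
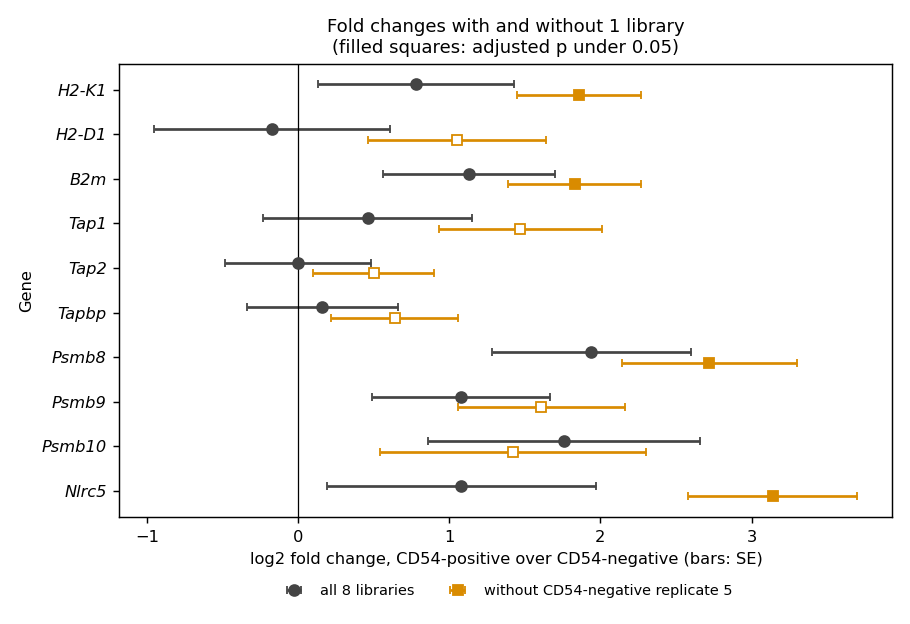
Log2 fold change of CD54-positive over CD54-negative with its SE for all 8 libraries (circles) and without the library labelled CD54-negative replicate 5 (squares, filled where the edgeR adjusted p is under 0.05). Nlrc5 moves farthest, to 3.14 without that library against 1.08 with it, and the filled squares are H2-K1, B2m, Psmb8 and Nlrc5.

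The library labelled CD54-negative replicate 5 was the highest of the 8 for 5 of the 10 genes (H2-K1, H2-D1, Tap2, Tapbp and Nlrc5), a position it held for 21.1% of all genes. Scaling enters here: with library sizes only it was highest for 2 of the 10 (H2-D1 and Tap2) and for 13% of all genes. Among the CD54-negative libraries it was highest for 9 of the 10 and for 31.8% of all genes, by between 2.00-fold (Psmb9) and 10.3-fold (Nlrc5) over the next highest of those 9. The other 5 genes were highest in CD54-positive replicate 5. That same CD54-negative library also held the highest neutrophil marker sum, 31946 CPM, and a macrophage marker sum of 1438 CPM.

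Per length, on the TPM scale (counts over gene length, scaled to an equal sum in each library), the 10 genes fell into a steep order of levels. This order rests on the deposited lengths, whose making is not stated, such as 710 bases for H2-K1, 1487 for H2-D1 and 1661 for Nlrc5. By estimated counts alone H2-D1 was above H2-K1 in CD54-positive replicate 5 (45625 against 44016) and in CD54-negative replicates 1, 2 and 5. The medians over 8 libraries were 4143 TPM for H2-K1, 1718 TPM for B2m and 997 TPM for H2-D1, then 182 TPM for Tapbp and 132 TPM for Psmb8. Psmb9 (82.0 TPM), Tap1 (63.4 TPM), Nlrc5 (46.2 TPM), Tap2 (38.7 TPM) and Psmb10 (38.6 TPM) followed. H2-K1 was above B2m, and H2-D1 above Tapbp, in 8 of 8 libraries, although their ranges overlap. No other neighbours kept their order in all 8: B2m was above H2-D1 in 4 of 4 CD54-positive but 1 of 4 CD54-negative libraries, and Tap2 and Psmb10 changed places often, with Tap2 higher in 3 of 8.

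Ratios within a library do not depend on how libraries are scaled, and 9 pairs of genes were compared in this way. Their levels per length depend on the deposited lengths, and their differences between the groups do not. No pair differed between the groups past the threshold (two-sided exact permutation tests over 70 assignments of 4 against 4, smallest possible p = 0.0286; adjusted p over the 9 pairs from 0.45 to 0.771). Psmb8 per Psmb5 came nearest, at 1.66, 2.25, 3.13 and 4.06 per length in CD54-positive replicates 1, 2, 3 and 5 and at 0.606, 1.11, 0.123 and 3.02 in CD54-negative ones. It was above 1 in all 4 CD54-positive libraries and in 2 of 4 CD54-negative libraries (log2 difference 1.89; exact permutation p = 0.0857, adjusted p = 0.45). That difference was 1.05 without CD54-negative replicate 3 and 2.59 without the library labelled CD54-negative replicate 5 (unadjusted exact permutation p = 0.171 and 0.0286). Psmb9 per Psmb6 ran from 0.857 to 1.74 in CD54-positive and from 0.378 to 2.25 in CD54-negative libraries. Psmb10 per Psmb7 was 0.0538, 0.0797, 0.0738 and 1.05 in CD54-positive replicates 1, 2, 3 and 5 and ran from 0.00887 to 0.296 in CD54-negative libraries, so that 1 library stood more than 10-fold above the others of its group.

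The ratio of H2-K1 to the light chain varied less between libraries than that of H2-D1. H2-K1 per B2m ran from 1.55 to 2.45 in CD54-positive and from 1.65 to 3.03 in CD54-negative libraries, a log2 difference of -0.09 (exact permutation p = 0.771). H2-D1 per B2m was 0.359, 0.456, 0.779 and 0.767 in CD54-positive replicates 1, 2, 3 and 5 and 1.34, 1.12, 0.421 and 1.84 in CD54-negative ones (log2 difference -0.89; exact permutation p = 0.171, adjusted p = 0.45). H2-K1 per H2-D1 ran from 2.02 to 6.39 in CD54-positive and from 1.24 to 4.99 in CD54-negative libraries (exact permutation p = 0.2). The difference between H2-K1 and H2-D1 in the comparison of the fractions was therefore not past the threshold. Tap1 per Tap2 (0.472 to 3.57) and Psmb9 per Tap1 (0.75 to 3.82) varied over all 8 libraries with overlapping groups (exact permutation p = 0.371 and 0.657).

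**Figure D5:**
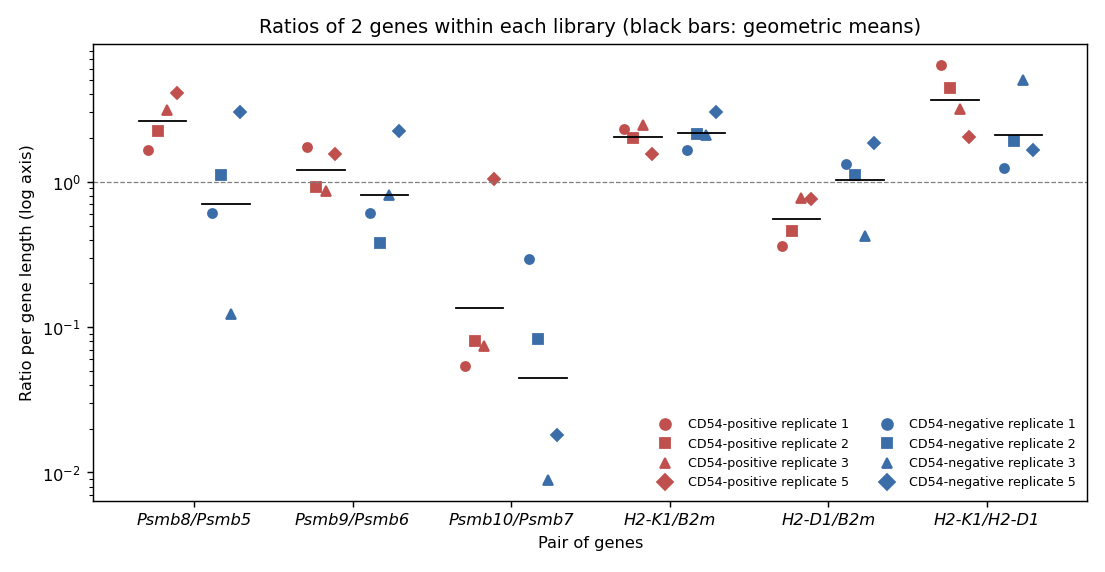
Ratios of 6 of the 9 gene pairs within each library, per gene length, on a log axis, CD54-positive in red at left and CD54-negative in blue at right of each pair; black bars are geometric means of 4 and the dashed line is a ratio of 1. The groups overlap in all 6 pairs shown, and Psmb10/Psmb7 reaches 1.05 in CD54-positive replicate 5 only.

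Of 19 tested genes among 21 other class I pathway and class I-like genes, 1 rose and none fell, with a median log2 fold change of 0.98. The class I-like genes among them were Hfe, Fcgrt, Cd1d1 and Mr1. Over all genes 1.22% were called higher and 0.273% lower. H2-Q6, a non-classical chain gene of the Q region, had 138, 413, 121 and 381 CPM in CD54-positive replicates 1, 2, 3 and 5 and 22.8, 48.8, 54.0 and 36.5 CPM in CD54-negative ones, so the groups did not overlap. It was 2.70 ± 0.55 higher in log2 (edgeR adjusted p = 0.0408). The call was lost without any 1 library other than the one labelled CD54-negative replicate 5 (edgeR adjusted p from 0.0529 to 0.115). In those fits 0.0284% to 1.18% of all genes were called. H2-Q6 still passed without the library labelled CD54-negative replicate 5 (edgeR adjusted p = 0.0375). Its neighbour H2-Q7 ran from 67.4 to 224 CPM in CD54-positive and from 8.97 to 38.5 CPM in CD54-negative libraries (2.58 ± 0.57; edgeR adjusted p = 0.0508). These chains share reads: 18.4% of the 31-base words of H2-Q6 occur in H2-Q7. H2-Q10 had the lowest log2 fold change, -2.93 ± 1.06 (edgeR adjusted p = 0.198), with 370.2 CPM in the library labelled CD54-negative replicate 5 and at most 31.7 CPM elsewhere. Others above 2 that did not pass were H2-M2 (3.07 ± 1.23; edgeR adjusted p = 0.236), at 0.0877 to 10.9 CPM over the 8 libraries, H2-M3 (2.58 ± 0.71; edgeR adjusted p = 0.102), which presents formylated peptides, and the iron regulator gene Hfe (2.12 ± 0.56; edgeR adjusted p = 0.089). The proteasome activator gene Psme1 had 1.12 ± 0.41 and the peptide-trimming enzyme gene Erap1 0.72 ± 0.46 (edgeR adjusted p = 0.205 and 0.451). Without the library labelled CD54-negative replicate 5, H2-Q6, H2-Q7, H2-T10 and Hfe rose, 4 of 19, beside 2.36% of all genes called higher. Without both libraries numbered 5 only H2-T10 passed, beside 1.59% of all genes called higher. H2-Q6 did not pass there (edgeR adjusted p = 0.0544).

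None of 18 constitutive proteasome and general loading genes passed the edgeR test, with a median log2 fold change of 0.20 and a range of -1.35 to 1.10. At an unadjusted p under 0.05 there were also none, and DESeq2 and limma-voom called 0 each. The smallest p belonged to Tpp2, a cytosolic peptidase gene, at -0.94 ± 0.46 (edgeR adjusted p = 0.323), and to Psmb2, a constitutive proteasome subunit gene, at 0.93 ± 0.53 (edgeR adjusted p = 0.408). The standard subunits Psmb5, Psmb6 and Psmb7 had 0.20 ± 0.58, 0.59 ± 0.46 and 0.31 ± 0.57, beside 1.94, 1.08 and 1.76 for the inducible subunits that replace them. The chaperone genes Calr, Canx and Pdia3, whose products act in the folding or loading of class I chains, had 0.40 ± 0.47, 0.15 ± 0.48 and 0.25 ± 0.47. The library labelled CD54-negative replicate 5 was the highest CD54-negative library for 2 of these 18 genes, against 9 of the 10 class I pathway genes.

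Among 25 genes of interferon signalling and MHC promoter control, 2 rose and none fell. Irf8, an interferon regulatory factor of the myeloid lineage, had 600, 429, 359 and 297 CPM in CD54-positive replicates 1, 2, 3 and 5 and 33.0, 43.7, 40.5 and 10.4 CPM in CD54-negative ones (log2 fold change 3.72 ± 0.55; edgeR adjusted p = 0.0125, and 0.0521 without CD54-negative replicate 1). Ciita, the class II transactivator gene, had 26.2, 30.9, 50.7 and 34.0 CPM in CD54-positive and 2.71, 1.9, 0.266 and 2.19 CPM in CD54-negative libraries (4.32 ± 0.78; edgeR adjusted p = 0.0258). That call was lost without any 1 of CD54-positive replicates 1, 2, 3 or 5 or CD54-negative replicates 1 or 2 (edgeR adjusted p from 0.0668 to 0.0789). In those fits 0.0284% to 0.566% of all genes were called, the lowest share without CD54-negative replicate 1. Irf1, which carries the interferon signal to class I promoters, did not pass. It ran from 61.3 to 87.0 CPM in CD54-positive and from 96.0 to 370.3 CPM in CD54-negative libraries (-1.25 ± 0.50; edgeR adjusted p = 0.235), without overlap between the groups. Of these 25 genes, 20 were highest among CD54-negative libraries in the library labelled CD54-negative replicate 5, as were 31.8% of all genes.

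Class II genes were measured in the same libraries. Of 9 class II genes 7 rose, with a median log2 fold change of 3.65. All 7 also passed without the library labelled CD54-negative replicate 5 (2.36% of all genes called higher). Without CD54-negative replicate 1, 0 passed, where 0.0284% of all genes were called in either direction. Without CD54-negative replicate 2, 4 passed (0.533% of all genes), and without any 1 CD54-positive library 5 passed (0.301% to 0.566%). The summed level of the 9 class II genes was 3413 to 7155 CPM in CD54-positive and 239 to 570 CPM in CD54-negative libraries, so the groups did not overlap. The sum of the 10 class I pathway genes was 3281 to 7434 CPM in CD54-positive and 1283 to 9118 CPM in CD54-negative libraries. Class II genes are also markers of macrophages and dendritic cells. The class II sum and the macrophage marker sum were each higher in every CD54-positive library than in any CD54-negative library. How these sums relate was not tested. The difference between the class I and class II lists was not tested. For their transactivators, Nlrc5 per Ciita was 9.88, 9.66, 2.47 and 5.37 per length in CD54-positive and 5.27, 14.2, 111 and 150 in CD54-negative libraries, the last 2 of these over Ciita levels of 0.266 and 2.19 CPM (exact permutation p = 0.143, adjusted p = 0.45).

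The genes whose profile over the 8 libraries was most like that of a class I pathway gene were looked for among 7501 genes of at least moderate level, by the root mean square (RMS) difference of centred log2(CPM + 1) values. For H2-K1 they were Rp2 (0.189), Laptm5 (0.212) and the activating Fc receptor gene Fcgr4 (0.218), and for B2m they were Laptm5 (0.161), the initiation factor gene Eif6 (0.2) and Plbd1 (0.203). Laptm5, a lysosomal membrane protein gene of blood cells, had 1484, 1107, 807 and 1738 CPM in CD54-positive and 301, 402, 265 and 1293 CPM in CD54-negative libraries, again with the highest CD54-negative value in the library labelled CD54-negative replicate 5. H2-K1 and B2m were near each other, B2m in place 8 for H2-K1 and H2-K1 in place 5 for B2m (RMS difference 0.288). Tap1 was nearest to the myeloid lectin gene Clec5a (0.249), the ubiquitin ligase gene Dtx3l (0.258) and the phosphatase gene Ptpn6 (0.276), with H2-D1 as its nearest member in place 5. Psmb8 was nearest to Mndal (0.303), the perforin-like gene Mpeg1 (0.342) and the cathepsin gene Ctsa (0.361). Its nearest member, B2m, came only in place 25 (0.52). For Nlrc5 the nearest were the interferon-inducible GTPase gene Gvin1 (0.452), Epsti1 (0.455) and the inhibitory receptor gene Lair1 (0.47), with H2-K1 as its nearest member in place 17 (0.687). These are descriptions of 8 libraries, and none of the 14 nearest genes outside the class I list passed the edgeR test itself.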

How the data were processed

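RNA sequencing of 8 libraries of sorted cells labelled neutrophils from tumours was analysed, 4 CD54-positive and 4 CD54-negative. Each was made from 150 pg of RNA (RNeasy Micro and QIAseq FX Single Cell kits, per the labels' protocols). The submitters' processing notes name Trim Galore 0.6.6, Salmon 1.9.0 and build GRCm39; no source used here names the annotation or settings. The authors deposited estimated counts per gene and a gene length; the length column's making is not stated. Of 25669 rows, 88 identifiers were repeated with identical values and kept once (25572). Symbols came from the table, and for 6482 genes listed by identifier from the reference table of names (25343 identifiers found).

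Estimated counts were rounded and tested with edgeR 4.0.16 in R 4.3.3 (filterByExpr, TMM, robust glmQLFit and glmQLFTest, group as the only term; 13575 genes), with Benjamini-Hochberg adjustment over all of them. SE is the log2 fold change over the square root of F. CPM uses TMM-adjusted totals; TPM uses the deposited length. Ratios used log2 with 0.5 counts added. The biological coefficient of variation was 0.858. Fits were tested on simulated data, where few changes below 8-fold were recovered. Nothing in the labels ties libraries to different animals; p-values thus reflect variation among libraries, possibly technical. Totals came from little RNA with no molecular identifiers mentioned, so counts need not equal molecules.

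The members and lists were chosen with earlier results of these data known. Named were all 10 members, listed pathway genes past the threshold or, with none, those with the smallest p, and the nearest profiles; H2-Q7, H2-Q10, H2-M2, H2-M3, Hfe, Psme1, Erap1, Irf1 and the chaperones were added after their values were seen. H2-Q2 and Krt5 matched no row. Other settings tried were DESeq2 1.42.0, limma-voom (limma 3.58.1), 3 other scalings, other filters, a replicate term and fits with libraries left out. Upstream sequences are from RefSeq (GRCm38.p6), another build than the files', and no coordinates of the files are given.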

Additional observations from a re-analysis of the deposited data

Results flagged for a closer look

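In 7 of 20 groups of 4 libraries (10 genes, 2 groups) the highest library stood apart from the next. The gap, as a share of the group's range, was above Dixon's 95% critical value for 4. For independent, normally distributed values about 1 such group in 20 would be flagged. These genes share the same libraries and the share over all genes was not counted, so the flags are descriptions only. In the library labelled CD54-negative replicate 5 the flagged genes were H2-K1 (0.928), B2m (0.893), Tap2 (0.843) and Nlrc5 (0.943). In CD54-positive replicate 5 they were H2-D1 (0.949), Tap1 (0.848) and Psmb10 (0.846). All 7 were high values in a library numbered 5, and the values themselves are given with each gene above. The cause was not tested.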

How the results depend on the processing

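Of the 10 class I pathway genes, 3 were past the threshold with limma-voom, 1 (Psmb8, edgeR adjusted p = 0.0352) with the replicate block, 2 without both libraries numbered 5 and 0 to 4 when 1 library was left out; the count stayed 0 with the other scalings, DESeq2 and both other filters. The titles do not say what the replicate number marks, and it was not taken to pair the samples. Deviations of same-numbered libraries correlated at -0.146, 0.12, 0.154 and 0.38 for numbers 1, 2, 3 and 5. Of the 8 libraries, 5 correlated best with their own number. These values do not settle whether same-numbered libraries belong together. Over all genes the replicate block called 280 higher and 261 lower, DESeq2 584 and 649, limma-voom 480 and 376, library sizes only 258 and 31, no filter 245 and 120, the stricter filter 184 and 61, and leaving out both libraries numbered 5 219 and 190, against 166 and 37; leaving out 1 library gave 4 to 337 higher and 0 to 241 lower. Of the other class I pathway and class I-like genes 1 was called in the main fit. The count was 2 with upper-quartile scaling, 3 with library sizes only, 4 with DESeq2 and 5 with limma-voom. It was 2 with no filter, 2 with the stricter filter, 2 with the replicate block and 0 to 4 without 1 library. Regulators called numbered 0 to 2 without 1 library. H2-D1 turned positive with library sizes only (0.23), limma-voom (0.50), the replicate block (0.37), without both libraries numbered 5 (0.53) and up to 1.05 without 1 library, whose lowest value was -0.66. Tap2 turned to -0.09 with RLE scaling and with DESeq2, and without 1 library ran from -0.17 to 0.50. Without 1 library Tap1 ran from -0.03 to 1.47 and Tapbp from -0.13 to 0.64. Without 1 library the differences of Psmb8 per Psmb5 ran from 1.05 to 2.59, Psmb10 per Psmb7 from 0.61 to 2.51, H2-D1 per B2m from -1.32 (without CD54-negative replicate 3) to -0.62, and Nlrc5 per Ciita from -3.38 (without CD54-negative replicate 1) to -1.77. The H2-K1 per B2m difference turned to 0.20 without both libraries numbered 5 and ran from -0.22 to 0.07 without 1 library. The summed epithelial markers turned to 0.07 (log2) with library sizes only and ran from -0.83 to 1.52 without 1 library. Upper-quartile scaling and library sizes only moved the median of all genes by 0.13 and 0.24. The cause of these changes was not tested; leaving out a library also leaves fewer to test.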
